A study of Mus musculus with 12 samples.

Results

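The genes described here are the ligands and receptors of the platelet-derived growth factor (PDGF) family. The members were the rows of the count files whose Ensembl identifiers carry the symbols Pdgfa, Pdgfb, Pdgfc, Pdgfd, Pdgfra and Pdgfrb, which gave 6 genes, 4 ligands and 2 receptors, of 52636 identifiers. All 6 passed the filter on low counts that left 21440 genes for testing. They were measured by RNA sequencing in 12 libraries of lung lymphatic endothelial cells (LECs) of Prox1-EGFP mice, in which Prox1 regulatory sequence drives green fluorescent protein. The cells were sorted as GFP and CD31 positive and as negative for EPCAM and a cocktail of blood lineage markers. Mice breathed cigarette smoke (CS) or room air (RA) from 6 weeks of age, for 8 weeks (acute) or for 24 weeks or more (chronic), by the study's methods. In the labels, 8 weeks stands as an age, and the chronic mice are given as aged. There were 2 acute RA, 2 acute CS, 3 chronic RA and 5 chronic CS libraries, named by sex (F or M) and number. The acute libraries were pools of several mice of a condition and the chronic libraries were single mice, so that pooling and length of exposure cannot be told apart.

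PDGFs are secreted growth factors that act as dimers on a pair of receptor tyrosine kinases. The alpha receptor, encoded by Pdgfra, binds the A, B and C chains and is found on fibroblasts and their progenitors. The beta receptor, encoded by Pdgfrb, binds the B and D chains and is found on pericytes and vascular smooth muscle. The A and B chains are matured inside the cell by furin-like convertases, whereas the C and D chains are secreted with a CUB domain that proteases remove outside the cell. In blood vessels, endothelial cells secrete PDGF-B and thereby recruit mural cells that carry the beta receptor. Lymphatic capillaries carry little mural covering, and PDGF-B made by lymphatic endothelium recruits smooth muscle to collecting lymphatics.

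Of the members, 4 had promoter windows in the RefSeq table of GRCm38.p6 (Pdgfa, Pdgfc, Pdgfd and Pdgfra), while Pdgfb and Pdgfrb are given by name only. Windows of 250 bases before the RefSeq start are shown for Pdgfd and Pdgfc, the ligands with the highest and the lowest level per length of all exons, and for Pdgfra, the receptor with a window. Capitals mark a TATAAA motif.
Pdgfd, chr9:6168236-6168485, forward strand: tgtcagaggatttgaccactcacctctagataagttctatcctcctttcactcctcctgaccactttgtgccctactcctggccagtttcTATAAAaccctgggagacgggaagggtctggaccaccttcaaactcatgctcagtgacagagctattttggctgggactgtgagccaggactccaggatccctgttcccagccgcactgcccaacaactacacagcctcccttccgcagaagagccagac
Pdgfc, chr3:81036166-81036415, forward strand: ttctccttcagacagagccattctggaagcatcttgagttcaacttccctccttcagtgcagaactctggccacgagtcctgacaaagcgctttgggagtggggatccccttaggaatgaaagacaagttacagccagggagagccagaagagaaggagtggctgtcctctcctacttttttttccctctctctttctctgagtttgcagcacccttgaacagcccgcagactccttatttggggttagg
Pdgfra, chr5:75152001-75152250, forward strand: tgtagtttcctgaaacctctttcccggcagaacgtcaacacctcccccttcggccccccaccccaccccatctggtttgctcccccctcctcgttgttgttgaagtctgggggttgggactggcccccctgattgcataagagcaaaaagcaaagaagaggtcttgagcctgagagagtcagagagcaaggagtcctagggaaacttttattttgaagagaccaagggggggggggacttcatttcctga
The first motif searched, on both strands as were all, was TATAAA, the TATA box. The Pdgfd window held 1 of it, beginning at position -160 from the start, and 12.4% of the 32851 windows of this length in the table held it. The GC box, GGGCGG, was found in 32.7% of windows, among them the 2 Pdgfa windows, with 1 and 2 matches. The CCAAT box, searched as these 5 letters, was found in 33.8% of windows and in no window of a member. The windows of Pdgfc and Pdgfra held none of the 3 motifs. The GC content was 53.6% for Pdgfd, 50.8% for Pdgfc and 54.4% for Pdgfra, near the median of 52.4% over all windows, and 66.4% and 72.4% for the Pdgfa windows. A match of letters is a description and not a binding site.

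On GRCm38, Pdgfa (ENSMUSG00000025856) lies on the reverse strand at chr5:138976014-138997370 and Pdgfb (ENSMUSG00000000489) on the reverse strand at chr15:79995874-80014977. The other members lie on the forward strand: Pdgfc (ENSMUSG00000028019) at chr3:81036416-81214040, Pdgfd (ENSMUSG00000032006) at chr9:6168584-6378850, Pdgfra (ENSMUSG00000029231) at chr5:75152292-75198215 and Pdgfrb (ENSMUSG00000024620) at chr18:61045150-61085061. Counts are over all annotated exons of a gene, untranslated regions included. An exon of Pdgfa overlaps the antisense gene 6330403L08Rik, which held at most 185 counts in a library against 727 to 1932 for Pdgfa. The strand setting of the counting is not given in the sources used here, so reads of that overlap could belong to either gene.

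The deepest library was acute RA F, with 56998590 counts, and the shallowest were chronic CS F, M1 and M2, with 18821438 to 22885446 counts. Levels are given as CPM, read counts normalised to library sizes that were scaled by edgeR's TMM factors. Of the markers that define LECs, Prox1 was at 1836 to 2476 CPM in the RA libraries and the lymphatic VEGF receptor gene Flt4 at 2716 to 4513 CPM. In the acute CS libraries, Prox1 lay at 1042 CPM in F and 1262 CPM in M, and Flt4 at 1159 and 1588 CPM. Markers of cells outside the gate were also counted and are given beside the receptors. Nothing in the labels says that chronic libraries of a group came from separate litters or days, and p-values measure the spread between these libraries.

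Levels of different genes can be compared per exon length, as FPKM, the CPM divided by the summed length of a gene's exons in kilobases. In the 2 acute RA libraries, Pdgfd was the highest member at 22.9 ± 0.093 FPKM (mean ± SD, n = 2), followed by Pdgfa at 10.2 ± 0.41 and Pdgfb at 3.25 ± 0.12 FPKM. Neighbours in this order did not overlap. The receptors Pdgfra, at 1.10 ± 0.72 FPKM, and Pdgfrb, at 0.841 ± 0.071 FPKM, overlapped each other, and Pdgfc was lowest at 0.169 ± 0.12 FPKM. The same order held in chronic RA (n = 3), from Pdgfd at 22.3 ± 2.3 FPKM through Pdgfa at 13.4 ± 2.9 and Pdgfb at 4.13 ± 0.24 to Pdgfc at 0.230 ± 0.091 FPKM, and there too the only neighbours that overlapped were the receptors. In RA, therefore, Pdgfa, Pdgfb and Pdgfd lay above both receptors, and the D chain, a ligand of the beta receptor, made up 51.7 to 63.5% of the summed ligand FPKM in the 5 RA libraries. In acute CS the order was different below Pdgfd (31.7 ± 5.7 FPKM, n = 2): Pdgfb at 11.9 ± 3.5, Pdgfrb at 10.9 ± 4.7 and Pdgfa at 10.3 ± 0.76 FPKM overlapped in sequence, and Pdgfra at 2.62 ± 0.38 FPKM lay apart from them. In chronic CS (n = 5) each of Pdgfd, Pdgfa, Pdgfb, Pdgfrb and Pdgfra overlapped its neighbour in the order, and Pdgfc lay apart at the bottom with 0.137 ± 0.21 FPKM. Part of this order depends on the length used. With the longest transcript in place of the union of exons, Pdgfa was at 20.4 ± 4.4 and Pdgfd at 22.4 ± 2.4 FPKM in chronic RA (SD, n = 3), where they overlapped, and Pdgfa was higher than Pdgfd in chronic RA F. In chronic CS Pdgfa, at 21.3 ± 4.8 FPKM, then had a higher mean than Pdgfd, at 20.1 ± 3.9 FPKM (SD, n = 5). In acute CS Pdgfa, at 15.6 ± 1.2 FPKM, then lay apart above Pdgfrb, at 10.97 ± 4.8 FPKM (SD, n = 2 each). In acute RA the order was the same with either length.

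**Figure D1:**
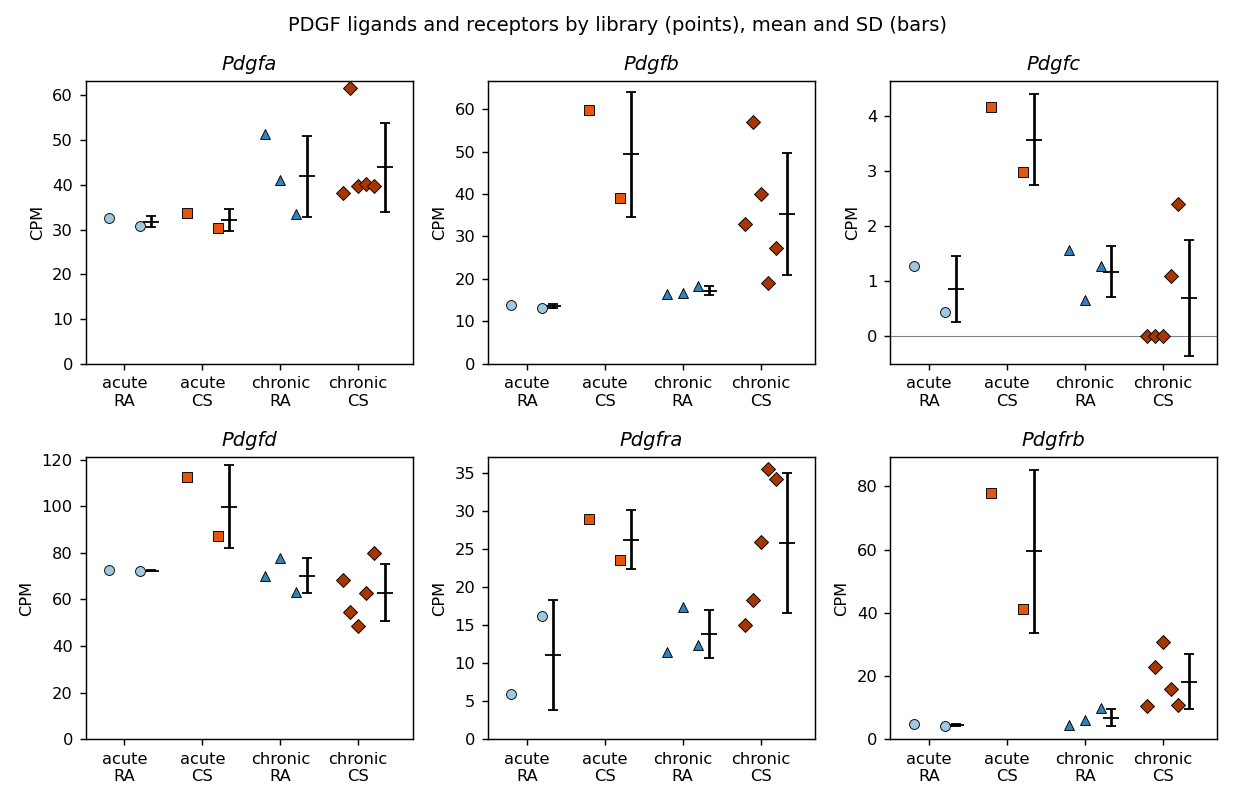
Level of each member in CPM (y axis) in the 12 libraries, with 1 panel per gene and the groups along the x axis; points are libraries and the bars beside them the mean and SD. Pdgfb and Pdgfrb lie higher in every CS library than in every RA library of the same time point, while 3 chronic CS libraries hold 0 counts of Pdgfc.

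Pdgfb, the ligand that endothelial cells use to recruit mural cells, rose after acute CS. It was counted at 13.9 CPM in acute RA F and 13.2 CPM in acute RA M, against 59.7 CPM in acute CS F and 39.0 CPM in acute CS M. Both acute CS libraries lay above both acute RA libraries. The log2 fold change was 1.87 (standard error, SE, 0.42, adjusted p = 0.0322 in edgeR), a ratio of means of 3.65. The study names Pdgfb from these libraries, so its direction here is not independent evidence. The call was lost in edgeR when acute RA F (log2 fold change 1.91, adjusted p = 0.206), acute RA M (1.80, adjusted p = 0.25) or acute CS F (1.53, adjusted p = 0.229) was left out. It was also lost when chronic RA F, M1 or M2 was left out, at 1.84 in each case (adjusted p in edgeR from 0.0553 to 0.0569), when the fit held the acute libraries alone (1.86, adjusted p = 0.0793 in edgeR), with sex as a covariate (1.86, adjusted p = 0.0512 in edgeR) and with the replicate block (1.83, adjusted p = 0.0589 in edgeR). In chronic RA, Pdgfb lay at 16.5, 16.7 and 18.4 CPM in F, M1 and M2. The chronic CS libraries F and M1 to M4 held 32.8, 56.9, 39.9, 19.1 and 27.2 CPM. Every chronic CS library lay above every chronic RA library, although M3 did so by less than 1 CPM. The log2 fold change was 1.03 (SE 0.31, unadjusted p = 0.00612 and adjusted p = 0.323 in edgeR), which did not pass, whereas DESeq2's adjusted p was 0.0318. With chronic CS F, M1 and M2 only it was 1.35, and with M3 and M4 only 0.43.

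Pdgfd, the member with the highest mean level per length of all exons and the other ligand of the beta receptor, was not called in any comparison. It lay at 72.6 CPM in acute RA F and 72.1 CPM in acute RA M, and at 112.5 CPM in acute CS F and 87.2 CPM in acute CS M. The groups did not overlap, and the log2 fold change was 0.46 (SE 0.22, adjusted p = 0.357 in edgeR). In chronic RA it ranged from 63.0 to 77.8 CPM. The chronic CS libraries, at 68.5, 54.5, 48.4, 63.0 and 79.8 CPM in F and M1 to M4, overlapped that range and held both the lowest and the highest value of the chronic libraries (log2 fold change -0.16, SE 0.16, adjusted p = 0.753 in edgeR). The acute effect exceeded the chronic effect by 0.62 on the log2 scale (SE 0.28, unadjusted p = 0.0449 and adjusted p = 0.405 in edgeR).

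Pdgfa, the classical ligand of the alpha receptor, differed little between the groups. In the acute libraries it lay at 32.6 and 30.8 CPM in RA F and M and at 33.8 and 30.4 CPM in CS F and M. The log2 fold change was 0.02 (SE 0.26, adjusted p = 0.994 in edgeR), the groups overlapped, and the sign turned to -0.02 with library size in place of TMM. In chronic RA it lay at 51.3, 41.1 and 33.4 CPM in F, M1 and M2, and in chronic CS F and M1 to M4 at 38.2, 61.6, 39.7, 40.3 and 39.7 CPM. Chronic CS M1 thus stood above the 4 other chronic CS libraries, which spanned about 2 CPM. The chronic log2 fold change was 0.07 (SE 0.19, adjusted p = 0.926 in edgeR). Between the room air groups (chronic minus acute) the log2 fold change was 0.40 (SE 0.24, adjusted p = 0.759 in edgeR).

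Pdgfc, a ligand of the alpha receptor, was the least abundant member in every group. It was counted at 1.28 and 0.435 CPM in acute RA F and M and at 4.16 and 2.99 CPM in acute CS F and M. The acute groups did not overlap, but the standard error was as large as the difference itself (log2 fold change 2.05, SE 2.02, adjusted p = 0.744 in edgeR). The fold change was 3.03 without acute RA F and 1.44 without acute RA M. In chronic RA it lay at 1.57, 0.662 and 1.28 CPM in F, M1 and M2. In chronic CS it was at 0 counts in F, M1 and M2, where 3 counts, the limit that a count of 0 allows, were worth 0.158, 0.132 and 0.125 CPM. Chronic CS M3 and M4 held 1.09 and 2.40 CPM. The chronic log2 fold change was -0.71 (SE 1.41, adjusted p = 0.885 in edgeR), and with M3 and M4 only it turned to 0.58. It was -1.99 without chronic CS M4 and -0.40 to -0.38 without F, M1 or M2. With F, M1 and M2 only it was -8.46 and with the replicate block -8.47, fits that rest on the 3 chronic CS libraries at 0, so that these values depend on the prior count. The libraries at 0 were the shallowest of the study. Zeros were also more frequent in them among the 473 genes tested whose 3 chronic RA values lay in the range of Pdgfc, from 0.662 to 1.57 CPM: 4.02, 6.34 and 15% of these genes were at 0 in F, M1 and M2, against 0.211 and 1.9% in M3 and M4, and 4 (0.846%) were at 0 in F, M1 and M2 alike. The part of depth in the zeros of Pdgfc was not tested. Libraries of this kind carry no molecular identifiers, so such limits cover counting error only.

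Pdgfrb, the beta receptor and a textbook marker of pericytes, showed the largest change of the members after acute CS. It was counted at 4.88 CPM in acute RA F and 4.33 CPM in acute RA M, against 77.7 CPM in acute CS F and 41.2 CPM in acute CS M. The acute CS libraries lay above both RA libraries and also above every chronic library. The log2 fold change was 3.69 (SE 0.59, adjusted p = 0.00867 in edgeR), a ratio of means of 12.9. This call was lost in edgeR without acute RA F (3.78, adjusted p = 0.0932), without acute RA M (3.57, adjusted p = 0.112) and without acute CS F (3.16, adjusted p = 0.0536). In chronic RA, Pdgfrb lay at 4.48, 6.28 and 9.89 CPM in F, M1 and M2, and in chronic CS F and M1 to M4 at 10.6, 23.02, 30.8, 15.9 and 11.01 CPM. Every chronic CS library lay above every chronic RA library, with F and M4 within about 1 CPM of chronic RA M2. The log2 fold change was 1.41 (SE 0.41, unadjusted p = 0.00585 and adjusted p = 0.317 in edgeR), while DESeq2's adjusted p was 0.0225. The acute effect exceeded the chronic effect by 2.28 on the log2 scale (SE 0.67, adjusted p = 0.180 in edgeR and DESeq2's adjusted p = 0.0262).

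Pdgfra, the alpha receptor of fibroblasts, gave values in the same direction that did not pass. It lay at 5.91 and 16.1 CPM in acute RA F and M, and at 28.9 and 23.5 CPM in acute CS F and M. The groups did not overlap (log2 fold change 1.25, SE 0.50, adjusted p = 0.243 in edgeR), and the fold change was 0.70 without acute RA F and 2.11 without acute RA M. In chronic RA it lay at 11.5, 17.4 and 12.4 CPM in F, M1 and M2. The chronic CS libraries F and M1 to M4 held 15.02, 18.3, 25.8, 35.5 and 34.1 CPM. Chronic CS F lay inside the range of chronic RA and the 4 other chronic CS libraries above it (log2 fold change 0.90, SE 0.37, unadjusted p = 0.0333 and adjusted p = 0.426 in edgeR). The higher libraries were not those of Pdgfb: with chronic CS M3 and M4 only the log2 fold change of Pdgfra was 1.33 and with F, M1 and M2 only 0.53.

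**Figure D2:**
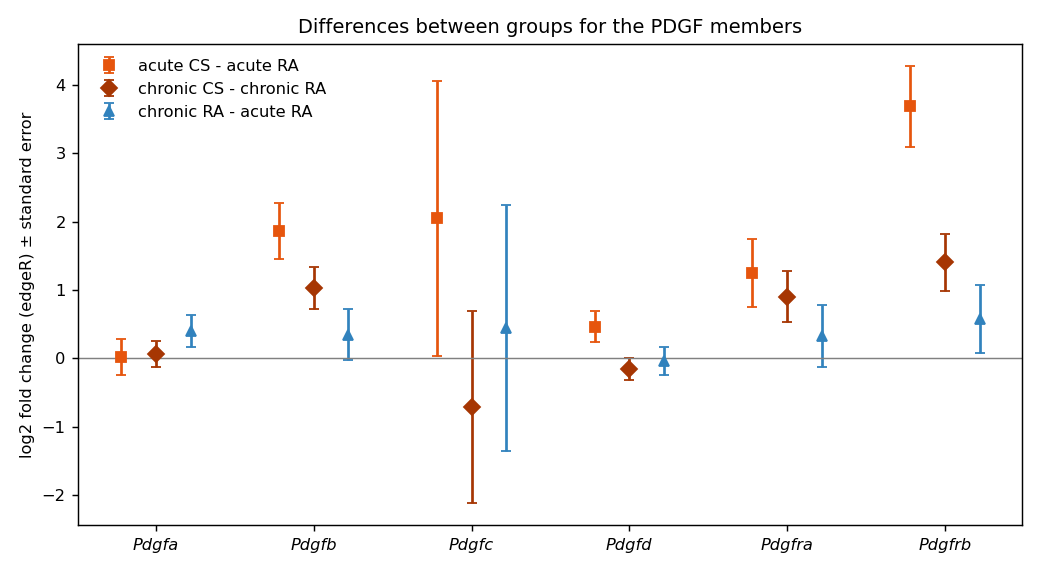
Log2 fold change of each member from edgeR's fit of all 12 libraries (y axis, with the standard error as bars) for the acute smoke effect, the chronic smoke effect and the room air controls (chronic minus acute). Pdgfrb at 3.69 and Pdgfb at 1.87 are the members called after acute CS, and the bars of Pdgfc span more than those of any other member.

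After acute CS, then, 2 of the 6 members were called, both higher. Over all genes tested 3.47% were called, and 2.75% were called higher. DESeq2 called the same 2 members and 8.98% of all genes. The count in edgeR was 1, Pdgfrb, with sex as a covariate, with the replicate block and with the acute libraries alone. The fold changes of all 6 members were above 0, with a median of 1.56 beside 0.04 for all genes. In 5 of the 6 the acute groups lay apart with CS higher, which was the case for 27.4% of all genes. After chronic CS, 0 of the 6 members passed in edgeR, as did 0% of all genes, since the fit called no gene there. At an unadjusted p under 0.05 there were 3 members, Pdgfb, Pdgfra and Pdgfrb, all higher, where 10.9% of all genes passed this limit and 5.57% did so as higher. DESeq2 called 2 members, Pdgfb and Pdgfrb, and 2.44% of all genes. The chronic groups lay apart with CS higher for these same 2 members and for 3.92% of all genes. The chronic median of the members was 0.48, beside 0.01 for all genes.

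Between chronic and acute RA, 0 of the 6 members were called by edgeR, as were 0% of all genes. At an unadjusted p under 0.05 there were 0 members and 7.01% of all genes, and DESeq2 called 0 members and 1.18% of all genes. For the difference between the acute and the chronic effect, edgeR called 0 of the 6 members and 0.452% of all genes. There were 2 members at an unadjusted p under 0.05, Pdgfrb and Pdgfd, where 11.9% of all genes passed, and DESeq2 called 1, Pdgfrb, and 4.27% of all genes.

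Set beside each other per length, ligands outweighed receptors less in CS libraries. The summed ligand FPKM was 11.6 to 25.02 times the summed receptor FPKM in the 5 RA libraries. In acute CS this ratio was 3.61 in F and 4.79 in M, below every RA library. In chronic CS it ranged from 4.60 to 12.2, and F, at 12.2, lay above the lowest chronic RA library, at 11.6. In proportion the receptor sum differed more than the ligand sum: receptors were at 1.94 ± 0.65 FPKM (SD, n = 2) in acute RA and 13.5 ± 5.1 FPKM (SD, n = 2) in acute CS, and ligands at 36.5 ± 0.74 and 54.5 ± 10.1 FPKM. Within the ligands, Pdgfb made up 8.80 to 12.5% in the RA libraries, 19.8 and 23.3% in acute CS M and F, and 12.2 to 27.0% in chronic CS. The ratio of Pdgfb to Pdgfrb was 2.44 to 4.86 in the RA libraries, 1.01 and 1.24 in acute CS F and M, and 1.58 to 4.07 in chronic CS, which overlapped RA. With the longest transcript as length, Pdgfb was at 20.3 and 13.2 FPKM and Pdgfrb at 14.3 and 7.60 FPKM in acute CS F and M. These ratios are descriptions of transcripts and were not tested. In bulk samples, fewer cells of a type and less RNA per cell cannot be told apart.

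**Figure D3:**
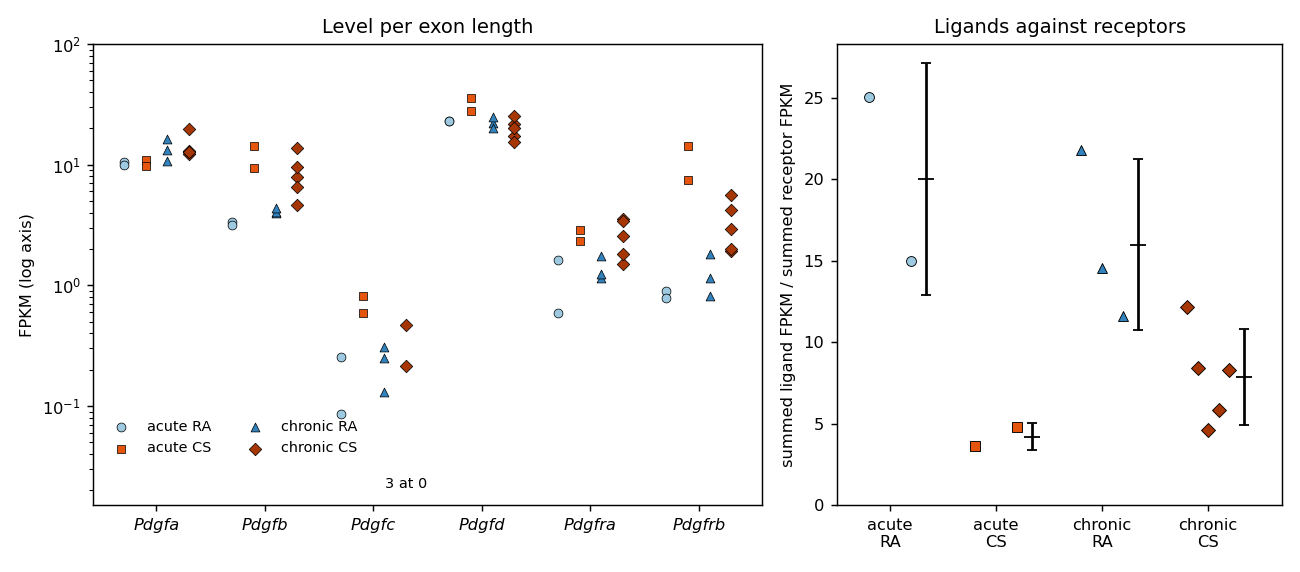
Left, FPKM of each member (log axis) by group, each point a library, with the number of libraries at 0 written for Pdgfc; right, summed ligand FPKM divided by summed receptor FPKM per library, with mean and SD. Pdgfd has the highest mean in every group with this length, and both acute CS ratios, 3.61 and 4.79, lie below those of all 5 RA libraries.

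Genes that process PDGFs or bind them outside the receptors were listed as 14, of which 13 passed the filter. After acute CS 4 of them rose and 0 fell, with a median log2 fold change of 0.40. Nrp1, a co-receptor of endothelial growth factors that also binds PDGF, rose from 36.4 ± 1.9 to 593 ± 314 CPM (SD, n = 2 each; log2 fold change 4.03, adjusted p = 0.00603 in edgeR). Pcsk5, a proprotein convertase, rose from 3.44 ± 0.88 to 37.2 ± 31.7 CPM (3.43, adjusted p = 0.0223 in edgeR). Lrp1, a lipoprotein receptor that associates with the beta receptor, rose from 12.4 ± 6.6 to 121.9 ± 48.8 CPM (3.29, adjusted p = 0.0184 in edgeR). Ndst1, an enzyme of heparan sulfate, rose from 39.7 ± 0.92 to 112.4 ± 40.1 CPM (1.5, adjusted p = 0.0163 in edgeR). Of the listed proteases that release the active C and D chains, only Plat and Plau are given, chosen after their values were seen. Plat, tissue plasminogen activator, lay at 21.9 ± 4.4 CPM in acute RA and 59.2 ± 25.4 CPM in acute CS (log2 fold change 1.43, adjusted p = 0.0646 in edgeR). Plau, urokinase, lay at 32.7 ± 0.96 and 9.32 ± 4.5 CPM (-1.81, adjusted p = 0.0568 in edgeR). Neither passed. After chronic CS 0 of the 13 were called, with a median of 0.12. Lrp1 had the smallest p of them (log2 fold change 2.12, unadjusted p = 0.000832 and adjusted p = 0.229 in edgeR), followed by Pcsk7, a further convertase (-0.47, adjusted p = 0.330 in edgeR). Between the room air groups and for the difference of effects 0 of the 13 passed in edgeR.

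Genes that act below the receptors were listed as 34, all tested. After acute CS 2 rose and 1 fell, and the list median was -0.12 beside 0.04 for all genes. Ptprj, a receptor phosphatase that acts on PDGF receptors, rose from 1.73 ± 1.2 to 20 ± 12.5 CPM (SD, n = 2 each; log2 fold change 3.53, adjusted p = 0.0286 in edgeR). Mapk3, which encodes the kinase ERK1, rose from 138.8 ± 8.3 to 271 ± 45.2 CPM (0.97, adjusted p = 0.0144 in edgeR). Yes1, a Src family kinase, fell from 215 ± 22.8 to 106.7 ± 12.5 CPM (-1.01, adjusted p = 0.00841 in edgeR). After chronic CS 0 of the 34 were called, with a median of -0.10. The genes with the smallest p there were Hras, a Ras GTPase (log2 fold change -0.43), and Mapk3 (-0.47), with adjusted p = 0.288 in edgeR for each. Mapk3 was the 1 gene of the list whose acute and chronic effects differed (1.44 on the log2 scale, adjusted p = 0.0379 in edgeR). This call was lost with the replicate block and without chronic RA M2, where edgeR called 0 of all genes for the difference. In both lists 0 genes were called after acute CS when acute RA F or acute RA M was left out, fits in which edgeR called 79 and 3 of all genes, and without acute CS F there was 1 call in the first list and 0 in the second.

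Cells that carry these receptors in the lung would bring other transcripts of their own, so markers of other cell types were counted in the same libraries. Of 12 mural cell markers, 3 rose and 1 fell after acute CS, and the median log2 fold change was 2.45. Acta2, smooth muscle actin, lay at 9.60 and 30.6 CPM in acute RA F and M and rose to 105.9 and 140.3 CPM in acute CS F and M (log2 fold change 2.61, adjusted p = 0.0286 in edgeR). Smooth muscle myosin Myh11 rose from 2.46 ± 1.7 to 36.6 ± 1.2 CPM (SD, n = 2 each; 3.89, adjusted p = 0.00400 in edgeR), and desmin (Des) from 4.02 ± 1.7 to 26.2 ± 1.6 CPM (2.71, adjusted p = 0.0347 in edgeR). The potassium channel subunit Abcc9 fell from 26.7 ± 0.56 to 11.1 ± 2.0 CPM (-1.27, adjusted p = 0.0219 in edgeR). The pericyte marker Cspg4 lay at 2.45 and 2.67 CPM in acute RA and at 16.2 and 4.92 CPM in acute CS F and M. Rgs5, another pericyte marker, was at 0 in acute RA F, 0.908 CPM in acute RA M, and 7.99 and 16.5 CPM in acute CS F and M. The order of the acute CS libraries was therefore F above M for Pdgfrb and Cspg4, and M above F for Acta2 and Rgs5. The summed level of the list ranged from 221 to 309 CPM in acute RA, 322 to 366 in acute CS, 288 to 350 in chronic RA and 270 to 435 CPM in chronic CS. Kcnj8, a potassium channel gene named after its values were seen, made up 74.7 to 85.3% of this sum in the RA libraries and lay at 172 to 231 CPM in acute RA and 53.5 to 95.4 CPM in acute CS (log2 fold change -1.44, adjusted p = 0.0673 in edgeR). Without it the sum of the other 11 markers was 48.9 to 78.4 CPM in acute RA and 268 to 271 CPM in acute CS. In chronic RA that sum was 42.3 to 56.1 CPM and in chronic CS 92.3 to 177 CPM. This choice removes an abundant marker with lower values in acute CS. In the chronic libraries Kcnj8 lay at 242 to 294 CPM in RA and 166 to 342 CPM in CS.

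In the chronic comparison 0 of the 12 mural markers were called, with a median of 1.39. Myh11 had a log2 fold change of 2.67 (unadjusted p = 1.62e-05 and adjusted p = 0.145 in edgeR) and Acta2 of 2.64 (unadjusted p = 9.11e-05 and adjusted p = 0.15 in edgeR). Acta2 lay between 4.95 and 11.6 CPM in chronic RA and between 30.2 and 71.0 CPM in chronic CS. Rgs5 was at 0 in chronic CS F and M2 and at most 1.49 CPM in any chronic library. The chronic CS library with the highest Pdgfrb, M2, was also the one with the highest Acta2, at 71.0 CPM, and the highest Cspg4, at 15.7 CPM. M1, next in Pdgfrb at 23.02 CPM, was also next in Cspg4, at 6.43 CPM, but held the lowest Acta2, at 30.2 CPM. F, lowest in Pdgfrb at 10.6 CPM, held Acta2 at 47.7 CPM. The part of mural cells in the level of Pdgfrb was not tested.

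Of 12 fibroblast markers, 4 rose and 0 fell after acute CS, and the median was 1.42. Type III collagen Col3a1 rose from 48.9 ± 1.0 to 241 ± 64.6 CPM (SD, n = 2 each; log2 fold change 2.30, adjusted p = 0.00947 in edgeR). Type I collagen Col1a1 rose from 12.4 ± 6.8 to 58.3 ± 10.2 CPM (2.23, adjusted p = 0.0237 in edgeR). The proteoglycan lumican (Lum) rose from 1.03 ± 1.0 to 21.5 ± 11.1 CPM (4.38, adjusted p = 0.0248 in edgeR). Decorin (Dcn) was called as higher (2.37, adjusted p = 0.0450 in edgeR), on values of 35.4 and 31.4 CPM in acute RA and 55.7 and 289 CPM in acute CS F and M. Acute CS M was the higher library for Dcn and Col1a1 and the lower for Pdgfra. The summed level ranged from 1296 to 1306 CPM in acute RA and 1974 to 3282 CPM in acute CS. Among its most abundant genes, named after their values were seen, Npnt lay at 549 ± 0.78 CPM in acute RA and 248 ± 58 CPM in acute CS (-1.15, adjusted p = 0.0684 in edgeR), and Gsn at 360.4 ± 2.9 and 1326 ± 625.3 CPM (1.88, adjusted p = 0.0526 in edgeR). In the chronic comparison 0 of the 12 were called, with a median of 1.56. Without chronic CS F 2 were called, in a fit where edgeR called 4 of all genes. The sums were 550 to 714 CPM in chronic RA and 879 to 1657 CPM in chronic CS, without overlap. Mfap4 and Tcf21, genes of lung fibroblasts, had chronic log2 fold changes of 1.93 and 1.99 (adjusted p = 0.145 in edgeR for each). The part of fibroblasts in the level of Pdgfra was not tested.

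**Figure D4:**
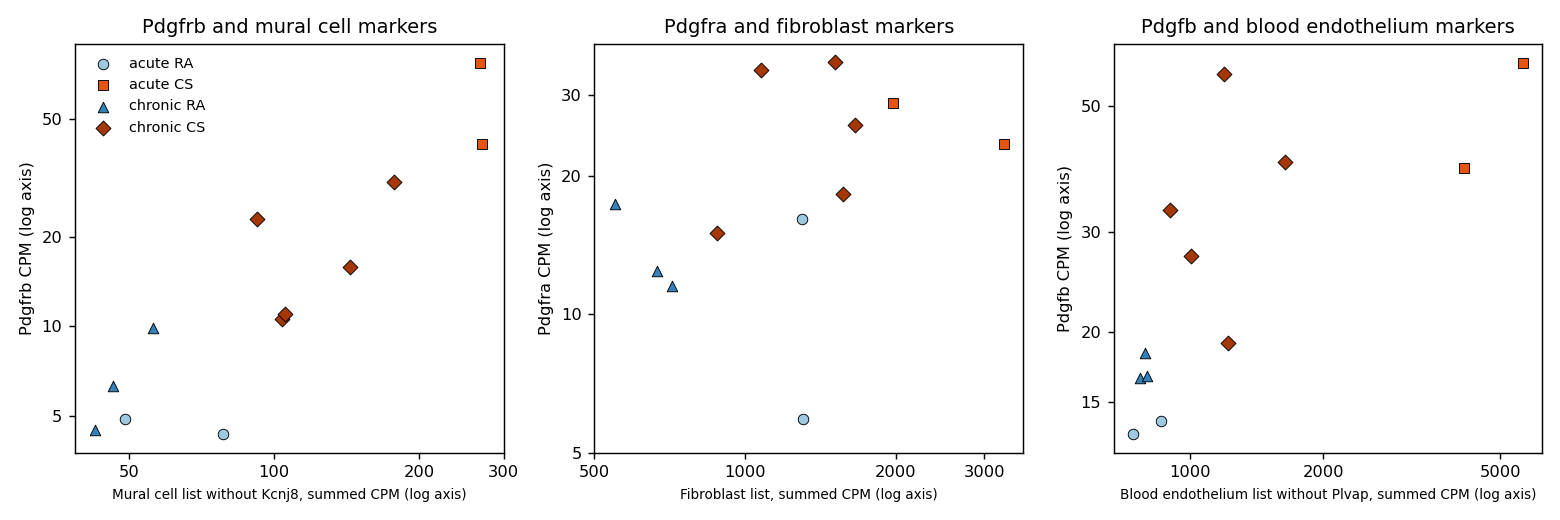
Each point is a library, with a member's CPM on the y axis and the summed CPM of a marker list on the x axis (both log axes), for Pdgfrb beside mural markers without Kcnj8, Pdgfra beside fibroblast markers and Pdgfb beside blood endothelial markers without Plvap. Both genes were left out after the values were seen. Without them the acute CS sums are 268 and 271 CPM in the first panel and 4136 and 5627 CPM in the last, whereas on the full mural list acute CS, at 322 and 366 CPM, lies below the highest chronic CS library, at 435 CPM.

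Pdgfb is also made by blood endothelium and by platelets. Of 12 blood endothelial markers, 7 rose and 0 fell after acute CS, and the median was 2.15. Vwf, which encodes von Willebrand factor, rose from 46.1 ± 9.97 to 1452 ± 534 CPM (SD, n = 2 each; log2 fold change 4.98, adjusted p = 0.00258 in edgeR). The capillary gene Car4 rose from 38.0 ± 5.0 to 481 ± 267 CPM (3.66, adjusted p = 0.00978 in edgeR). Kit and Hey1 rose with log2 fold changes of 2.72 and 2.08 (adjusted p = 0.00797 in edgeR and 0.00824). Gpihbp1, a protein of capillary endothelium, lay at 188.7 and 167.3 CPM in acute RA F and M and at 525 and 386 CPM in acute CS F and M (1.35, adjusted p = 0.0920 in edgeR). Plvap, which lymphatic endothelium also expresses, lay between 1704 and 3053 CPM in all libraries. The summed blood endothelial level was 2988 to 3799 CPM in acute RA and 7142 to 8346 CPM in acute CS. In chronic RA it was 3489 to 3578 CPM and in chronic CS 2926 to 3949 CPM, which overlapped. Plvap made up between 32.6 and 80.4% of this sum in a library. Without it, a choice made after the values were seen, the sum of the other 11 markers was 746 to 861 CPM in acute RA, 4136 to 5627 in acute CS, 773 to 799.9 in chronic RA and 901 to 1641 CPM in chronic CS. The chronic groups overlapped in the full sum and did not in this one. Of the 12 markers, 11 had a chronic log2 fold change above 0, and 0 were called there (median 0.59), where Vwf (1.38, adjusted p = 0.261 in edgeR) and Gja5 (1.92, 0.333) had the smallest p. Vwf lay at 51.0 to 61.4 CPM in chronic RA and 88.6 to 276 CPM in chronic CS. The part of blood endothelium in the level of Pdgfb was not tested.

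Of 8 platelet and megakaryocyte markers 0 were called in either comparison. Their median was 1.63 after acute CS and -0.57 after chronic CS, and all 8 lay below 0 in the chronic comparison, where Itga2b (-1.68, adjusted p = 0.304 in edgeR) and Gp9 (-1.33, 0.609) had the smallest p. Platelet factor 4 (Pf4) lay at 2.18 and 3.12 CPM in acute RA, 12.4 and 6.83 in acute CS F and M, 5.62 to 12.3 in chronic RA and 3.68 to 8.80 CPM in chronic CS. The summed platelet level was 13.3 to 17.0 CPM in acute RA, 19.3 to 55.9 in acute CS, 31.7 to 97.9 in chronic RA and 16.3 to 46.0 CPM in chronic CS. Their part in the level of Pdgfb was not tested.

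Markers of LECs themselves and of leukocytes and epithelium were listed as well. Of 8 lymphatic markers, 0 rose and 3 fell after acute CS, with a median of -0.92: Nrp2, a co-receptor of lymphatic growth factor (-1.42, adjusted p = 0.00570 in edgeR), Prox1 (-1.03, adjusted p = 0.00797 in edgeR) and Flt4 (-1.10, adjusted p = 0.0204 in edgeR). Lyve1, a hyaluronan receptor of lymphatic capillaries named after its values were seen, did not pass and had higher values after smoke, at 443 to 536 CPM in acute RA and 568.2 to 986 CPM in acute CS (0.67, adjusted p = 0.307 in edgeR). The summed level of the list was 15304 to 17107 CPM in acute RA, 6500 to 9869 in acute CS, 19975 to 22974 in chronic RA and 14955 to 21271 CPM in chronic CS. Of 8 macrophage and leukocyte markers, 3 rose and 1 fell (median 4.22), and their sum was 989 to 1103 CPM in acute RA and 3906 to 6584 in acute CS, against 734 to 1037 in chronic RA and 919 to 2358 CPM in chronic CS. Ptprc, the leukocyte antigen CD45, rose with a log2 fold change of 3.48 (adjusted p = 0.0121 in edgeR), as did the macrophage gene Cd68 (3.94, adjusted p = 0.0146 in edgeR) and the integrin gene Itgax (6.43, adjusted p = 0.0154 in edgeR). The fallen gene was Mrc1 (-0.94, adjusted p = 0.0155 in edgeR), a mannose receptor that lymphatic endothelium shares with macrophages. Of 8 alveolar epithelial markers 1, Hopx, rose after acute CS (3.22, adjusted p = 0.0296 in edgeR; list median 1.90), and their sum was 6512 CPM in acute CS F and 255 CPM in acute CS M, above and below the 758 to 1075 CPM of acute RA. In chronic RA the epithelial sum was 253 to 477 CPM and in chronic CS 930 to 4600 CPM. Epcam, the antigen of the gate, was at 0 in chronic CS F and at most 16.1 CPM in any library. In the chronic comparison 0 genes of these 3 lists were called, with medians of -0.21, 0.97 and 2.43. The smallest p there belonged to Flt4 (-0.36, adjusted p = 0.44 in edgeR) and Pdpn (-0.28, 0.491), to Itgax (2.24, 0.367) and Lyz2 (1.85, 0.371), and to Hopx (1.71, 0.324) and Ager (2.58, 0.324). Of all marker lists, the median of the lymphatic list was the only one below 0 after acute CS. These counts, too, rest on few libraries: without acute RA M edgeR called 0 genes after acute CS in each of the 11 lists, without acute RA F at most 1 in each marker list, and without acute CS F at most 2. Leaving out a library also gave more calls than the full fit in some lists, among them the lymphatic, mural and macrophage lists. The part of LECs, leukocytes and epithelium in the members' levels was not tested.

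Between the room air controls edgeR called 0 genes in every list. Of the 12 fibroblast markers, 9 had an unadjusted p under 0.05 with lower values in chronic RA, and the list median was -1.20, where Pdgfra had 0.32. Col3a1 was at 17.9 ± 7.9 CPM (SD, n = 3) in chronic RA, below the 48.9 ± 1.0 CPM of acute RA given above (log2 fold change -1.45, adjusted p = 0.38 in edgeR). Mural markers had a median of -0.17 there, with Acta2 at -1.34 (adjusted p = 0.627 in edgeR), and Pdgfrb was at 0.58. Platelet markers had a median of 2.13, with all 8 above 0, where Pdgfb had 0.35, and alveolar epithelial markers a median of -1.25, with all 8 below 0. Of the genes that bind PDGF, the heparan sulfate proteoglycan Hspg2 had the smallest p, at 24.2 ± 3.0 CPM in acute RA and 62.7 ± 14.0 CPM in chronic RA (1.37, adjusted p = 0.178 in edgeR). For the difference between the acute and the chronic effect, 3 genes of the lists were called: Vwf (3.60 on the log2 scale, adjusted p = 0.0396 in edgeR), Prox1 (-1.09, adjusted p = 0.0406 in edgeR) and Mapk3. These calls were lost with the replicate block and without chronic RA M2, fits in which edgeR called 0 of all genes for this difference.

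**Figure D5:**
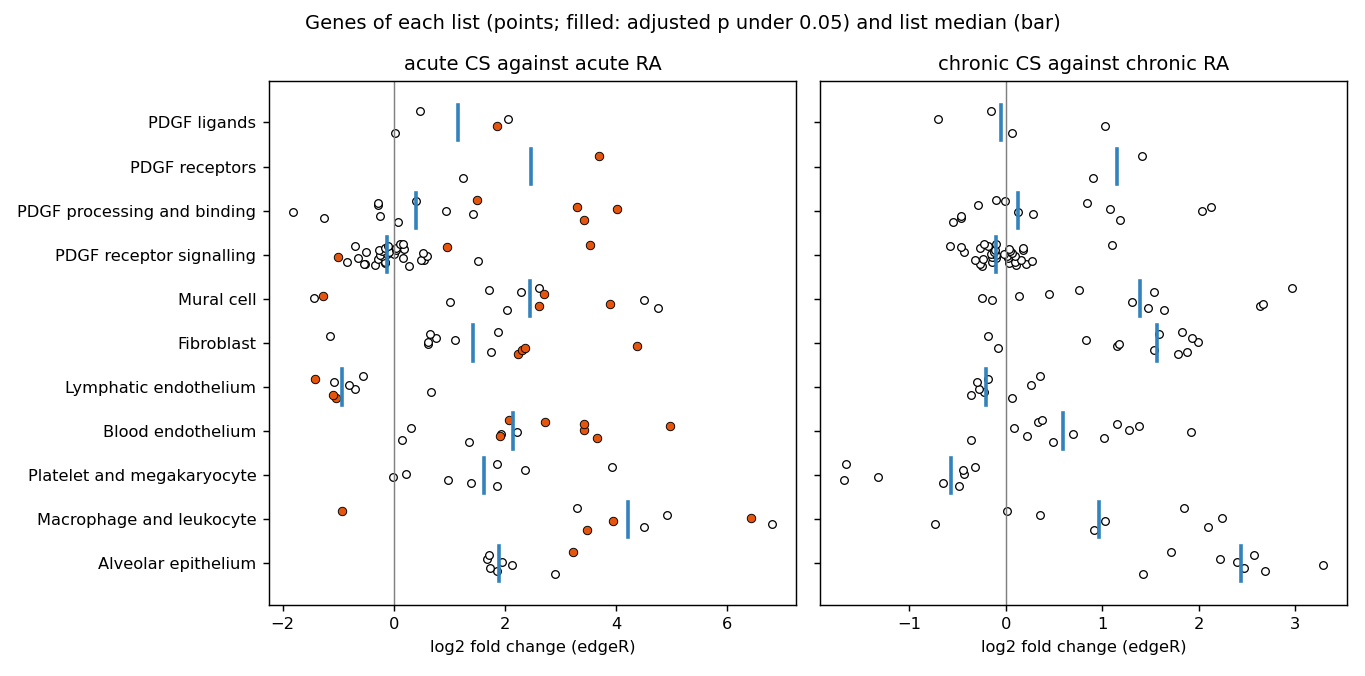
Log2 fold change of every tested gene (points, filled where edgeR's adjusted p was under 0.05) in the 11 lists, with list medians as bars, with the acute smoke effect on the left and the chronic one on the right. After acute CS the receptors lie at 3.69 (Pdgfrb, filled) and 1.25 (Pdgfra), and after chronic CS no point is filled.

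Across the 12 libraries, members were compared with each other and with all other genes by Pearson correlation of log2 CPM, as a description only, since libraries of a group share their exposure and time point. Pdgfb and Pdgfrb were the members most alike, at r = 0.889, followed by Pdgfc and Pdgfd at 0.746 and Pdgfra and Pdgfrb at 0.633. Pdgfa was at most at 0.251 with any other member, and at -0.468 with Pdgfd and -0.449 with Pdgfc. Among 12428 genes compared, those most like Pdgfrb were Ceacam1 (0.972), Tspan8 (0.970) and Rasgef1a (0.964). Those most like Pdgfb were Mllt3 (0.943), Gm29216 (0.927) and Ndufa4l2 (0.921), and for Pdgfd they were Atp10a (0.954), Peli1 (0.930) and Bzw2 (0.921). Pdgfra was matched less closely, by Dapk1 (0.857), Atp8b1 (0.833) and Kctd10 (0.832), and Pdgfa least, by Gm28512 (0.839), Cbx6 (0.819) and Rfxap (0.811). For Pdgfc, whose values rest on few counts and 3 zeros, the closest were 9430038I01Rik (0.946), Cab39l (0.926) and Mfsd6 (0.920).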

How the data were processed

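RNA of sorted lung LECs was sequenced in 12 libraries. The authors checked reads with FastQC 0.11.9, trimmed adapters with Skewer, filtered with Minion, aligned to GRCm38 with STAR and counted reads per gene with its GeneCounts mode. The deposited files hold the resulting counts of each Ensembl gene as whole numbers that were not normalized. The annotation release and strand setting are not given in the sources used here.

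Here, symbols, positions and exon lengths were taken from GENCODE M21, which held 52489 of 52636 identifiers. The test was run with edgeR 4.0.16 under R 4.3.3 (filterByExpr, TMM factors, quasi-likelihood F-test, all 4 groups in a single fit, Benjamini-Hochberg adjustment over 21440 genes, limit 0.05), and DESeq2 1.42.0 was the other tool. Tables and figures were made with pandas 2.3.3 and matplotlib 3.10.9 (Python 3.11.15). The standard error is the absolute log2 fold change divided by the square root of F. Correlations used log2 CPM with a prior count of 2 and genes whose mean on this scale was at least 1. On simulated counts with a 4-fold change, edgeR called 72 of 192 changed genes in the acute, 81 of 188 in the chronic and 77 of 192 in the room air comparison, with 3, 4 and 3 unchanged genes called of 20470, 20455 and 20468 genes run. No library duplicated another: over the 15 pairs within groups, the median chi-square of the counts was 7.2 or more.

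The members and gene lists were chosen with earlier results of these data known. By rule, the text names the members, of every other list up to 4 called genes per comparison with the smallest p or else up to 2 genes with the smallest p, defining markers of each cell type, and the 3 genes most correlated with each member. Plat, Plau, Kcnj8, Npnt, Gsn and, after acute CS, Lyve1 are named outside it. Of the genes the rule gives in the room air and difference comparisons, only those set beside a member are printed. Alternatives were DESeq2, scaling by library size, testing without the filter, fits of only the groups compared, sex as covariate, a replicate block, robust estimation, leaving out each library, and subsets of chronic CS. Sums of the mural and blood endothelial lists without Kcnj8 and Plvap were added after seeing the data. Whether libraries that share sex and number deviate together from their group means was checked. In the chronic pairs r was -0.042 to 0.034, against -0.105 to 0.069 for chronic libraries of unlike label. In the acute pairs r was 0.069. With 2 libraries in each acute group the deviations mirror each other, so the acute r cannot decide the question. The numbers were not taken to pair libraries.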

Additional observations from a re-analysis of the deposited data

Results flagged for a closer look

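Pdgfa in chronic CS M1, at 61.6 CPM, stood apart from the other chronic CS libraries, which lay between 38.2 and 40.3 CPM. The gap to the nearest library made up 0.912 of the range of the group, where 0.710 is the 95% critical value of Dixon's test for 5 libraries. Of the 15 values of chronic CS examined this way, of the members and of the summed levels of the other lists, 1 was flagged, and chance flags about 1 in 20. M1 also held the highest Pdgfb of the group, at 56.9 CPM. Without chronic CS M1 the chronic log2 fold change of Pdgfa was -0.07 in place of 0.07 and passed in neither case.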

How the results depend on the processing

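The count of members called after acute CS was 2 with DESeq2, library size, no filter and robust estimation, and 1 with only the groups compared, with sex as a covariate and with the replicate block. Leaving out each library gave 0 to 2. The log2 fold change of Pdgfb after acute CS was 1.86 with only the groups compared (edgeR's adjusted p = 0.0793), 1.86 with sex as a covariate (0.0512) and 1.83 with the replicate block (0.0589), and leaving out each library gave 1.53 to 2.14 (0.0169 to 0.25). That of Pdgfrb was 3.16 to 4.08 when each library was left out (0.00496 to 0.112), and its call held under all other settings. After chronic CS, DESeq2 called 2 members and every other setting 0. For the difference of effects, DESeq2 called 1 member, and chronic CS F, M1 and M2 only gave 1, Pdgfc, which is at 0 in those libraries so that its fitted fold change depends on the prior count. With the room air groups compared, every setting called 0 members. The replicate block changed no other call of a member and could not be fitted for the room air comparison. For the difference of effects, only the groups compared is the fit as reported.

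Signs that turned were all of fold changes that passed nowhere. For Pdgfa they were -0.018 with library size and -0.0087 without a filter after acute CS (-0.059 to 0.091 when each library was left out), -0.070 with chronic CS M3 and M4 only after chronic CS (-0.071 to 0.24), and 0.086 with M3 and M4 only for the difference (-0.25 to 0.056). With M3 and M4 only, the chronic fold change was 0.58 for Pdgfc and 0.022 for Pdgfd, and the difference -0.084 for Pdgfra (-0.20 to 1.21 when each library was left out). Between the room air groups, leaving out each library gave -0.15 to 1.42 for Pdgfc, -0.13 to 0.020 for Pdgfd and -0.23 to 1.21 for Pdgfra. The cause was not tested. Of all genes, edgeR called 745 after acute CS, 139 with only the groups compared, 73 with the replicate block, 3 without acute RA M, 79 without acute RA F and 175 without acute CS F, and DESeq2 called 1926. Library size in place of TMM moved the median of all genes from 0.00 to -0.10 between the room air groups. Leaving out a library of acute RA or CS leaves a lone library that is assumed to vary like the others. In the shallowest libraries, chronic CS F, M1 and M2, 3 counts were worth 0.125 to 0.158 CPM.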
